A study of Homo sapiens with 3 samples.

Results

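The genes described here are 10 components of the insulin-like growth factor (IGF) axis: the ligands IGF1 and IGF2, the receptor IGF2R, the binding proteins IGFBP2 to IGFBP6, and the receptor substrates IRS1 and IRS2. They were taken by symbol: each of the 10 matched 1 gene identifier among the 58302 genes counted, of which 19708 are protein-coding. Total RNA was sequenced from C4-2, a castration-resistant prostate adenocarcinoma line derived from LNCaP, in 3 libraries labelled as wild-type replicates without treatment. The series also deals with neuroendocrine cells and with depletion of neuropilin-2. No such samples are among the 3 libraries analysed here, so all values come from 1 group, and the labels do not say whether the replicates were separate cultures. Any p-value therefore refers to the scatter among these libraries alone, and that scatter may be technical.

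IGF1 and IGF2 are secreted hormones that act through the type 1 IGF receptor, a tyrosine kinase that passes the signal to the IRS docking proteins and from there to phosphoinositide 3-kinase and AKT. IGF2R, also known as the cation-independent mannose 6-phosphate receptor, has no kinase and carries IGF2 to lysosomes. The IGFBPs hold IGFs outside the cell and are themselves cut by proteases, among them the prostate-specific antigen KLK3. In the prostate, stromal cells are a well-known source of IGFs.

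Reads assigned to genes numbered 51200272, 47513470 and 49965601 in replicates 1, 2 and 3. Low counts were mostly even: 2562, 2507 and 2702 genes had exactly 2 reads in these libraries, against 437, 532 and 407 genes with exactly 1. Even numbers made up 78.6%, 75.1% and 81.6% of all counts from 1 to 20. Counting both mates of a pair singly gives even counts, but the sources used here do not give the read layout. Tests that treat each read as independent are therefore given with and without a division by 2. All 8 luminal prostate markers were detected, meaning at least 10 reads in every library, with summed levels of 3288 to 3314.5 TPM, which is read number per exon length scaled to a common total in each library. Of 10 fibroblast and stroma markers 3 were detected, with summed levels of 11.7 to 13.0 TPM, most of it from COL1A1 at 10.2 ± 0.392 TPM (SD, n = 3). The others detected were PDGFRB at 1.17 ± 0.133 TPM and THY1 at 0.524 ± 0.160 TPM (SD, n = 3 each). Of the stromal genes not detected, COL3A1, COL6A3 and ACTA2 had at most 16 reads in any library. DCN, LUM and PDGFRA had at most 8, and COL1A2 had 0. Of 7 neuroendocrine markers 4 were detected, and the summed levels of the 7 were 5.25 to 6.38 TPM. Of protein-coding genes 71.8% were detected.

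Of the 10 IGF axis genes 8 were detected, beside 71.8% of protein-coding genes. Of the 10 genes, 7 averaged 1 TPM or more, beside 62.7% of protein-coding genes. Their median was 8.45 TPM, and that of all protein-coding genes was 5.43 TPM. From IGF2R at the top to IGFBP6 at the bottom the mean level spanned 310-fold. In a culture measured in bulk, a low level in every cell and a high level in few cells cannot be told apart.

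**Figure D1:**
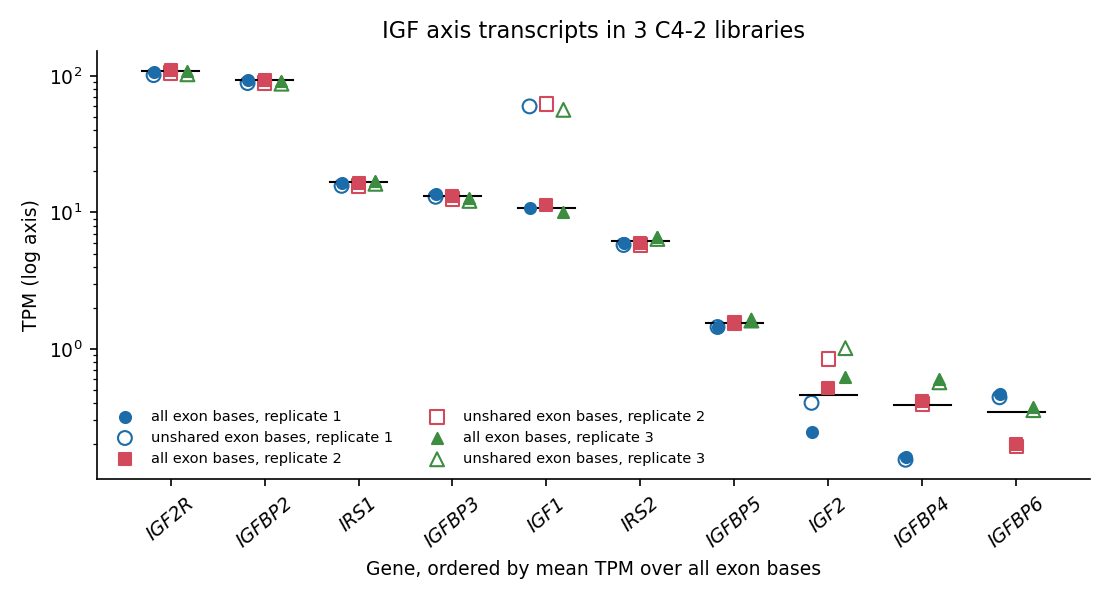
TPM on a log axis for each of the 10 genes in the 3 libraries. Filled symbols divide reads by all exon bases, open symbols by the exon bases that no other gene shares, and bars are means of the filled symbols; IGF1 stands at 10.7 TPM by filled symbols and 59.5 TPM by open ones, while IGF2R and IGFBP2 stay above it on both scales.

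Of the 10 genes, 4 share exon bases with another gene, beside 42.8% of protein-coding genes, and 1 shares over 50% of them, beside 4.7%. That gene, IGF1, is the one whose level depends most on how it was counted. It is annotated on the minus strand of chromosome 12 (102395867 to 102480645, GRCh38, Ensembl release 90), and its merged exons form 7 blocks of 8087 bases in all. The last block, of 6700 bases, holds the end of the coding sequence and the long 3′ untranslated region. It lies wholly inside HELLPAR, a long non-coding RNA annotated on the opposite strand as a single exon of 205012 bases. The recorded options hold nothing to keep a read that touches both genes, and by default such reads are dropped, so every read credited to IGF1 came from the other 6 blocks, which hold 1387 bases, or 17.2% of its exon length. Of the 459 coding bases of the reference transcript, 57 lie in the shared block. The blocks below are among these 6, and are shown because they are wholly coding and unshared. Counts are given per gene, so they do not say which of the 6 blocks the IGF1 reads fell on. Capitals mark in-frame TGC and TGT codons, which encode cysteine, 3 in block 3 and 4 in block 4. The first of them in block 3 belongs to the signal peptide, and the others to the mature hormone, which disulfide bonds hold together. Both are given 5′ to 3′ on the minus strand of chromosome 12 of GRCh38, block 3 from 102475643 to 102475799 and block 4 from 102419509 to 102419690.
IGF1 block 3: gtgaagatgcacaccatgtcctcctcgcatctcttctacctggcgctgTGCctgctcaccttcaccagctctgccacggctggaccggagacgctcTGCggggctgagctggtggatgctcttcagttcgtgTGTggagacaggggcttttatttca
IGF1 block 4: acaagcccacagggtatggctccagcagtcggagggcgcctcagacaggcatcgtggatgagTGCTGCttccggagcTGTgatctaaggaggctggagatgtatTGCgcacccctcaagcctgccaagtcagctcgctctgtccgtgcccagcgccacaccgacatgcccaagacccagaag

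IGF1 had 1461, 1401 and 1370 reads in replicates 1, 2 and 3. Over all exon bases this equalled 10.8, 11.2 and 10.1 TPM, with a mean of 10.7 ± 0.553 TPM (SD, n = 3), above 58.0% of protein-coding genes. The libraries lay close together, with no library apart from the others. Dividing each gene's reads by its unshared exon bases instead gave 59.7, 62.4 and 56.3 TPM, a mean of 59.5 ± 3.06 TPM (SD, n = 3), above 87.2% of protein-coding genes. The level on the second scale was 5.55 times that on the first. The unshared blocks carried 1053, 1010 and 988 reads per kilobase. HELLPAR had 2460, 2452 and 2173 reads, which equalled 12.5, 12.5 and 11.0 reads per kilobase of its own unshared bases, or 1.18% of the density on IGF1. Counting ignored strand, so sense and antisense reads on the unshared blocks cannot be told apart.

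**Figure D2:**
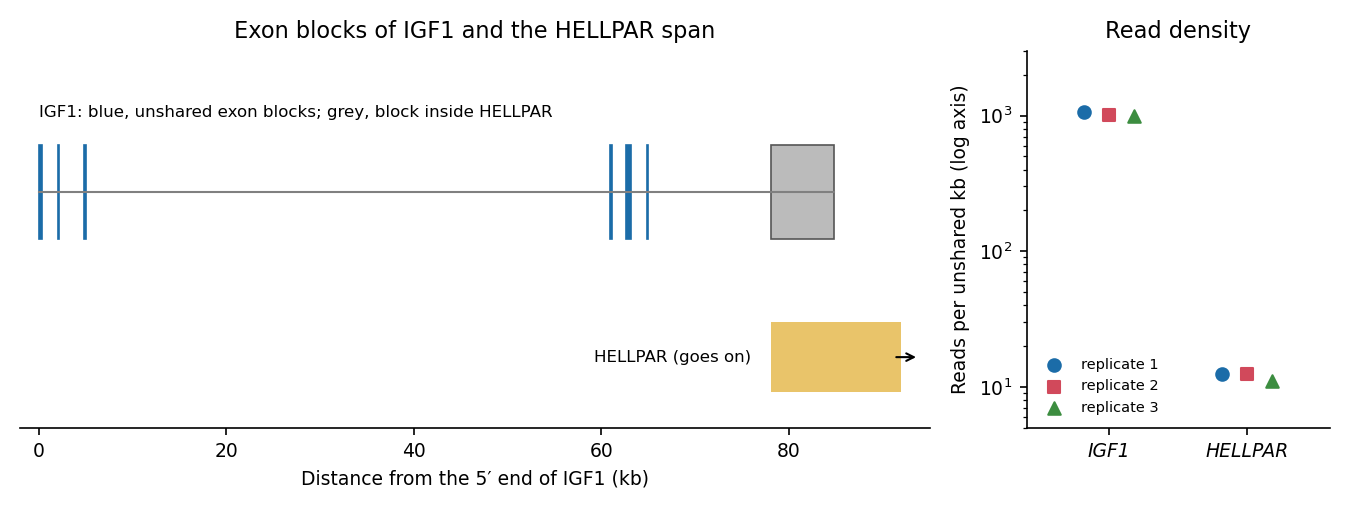
Left, the 7 exon blocks of IGF1 and the start of the overlap with HELLPAR, drawn to scale by distance in kilobases from the 5′ end of IGF1; right, reads per kilobase of unshared exon bases on a log axis for both genes in the 3 libraries. The grey block of 6700 bases is the one that yields no counted read, and IGF1 lies near 1017 reads per kilobase while HELLPAR lies between 11.0 and 12.5.

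IGF2, the fetal growth factor expressed from the paternal allele in most tissues, was near the lower end. It lies on chromosome 11 (2129112 to 2141238, minus strand). It had 26, 50 and 65 reads in replicates 1, 2 and 3, or 0.247, 0.519 and 0.622 TPM. Replicate 1 was the lowest, at 0.536 of the reads expected from an even level, and replicate 3 the highest at 1.38. The mean was 0.463 ± 0.193 TPM (SD, n = 3). IGF2 shares 41.6% of its exon bases with other genes. The largest part, 34.2% of its exon bases, is shared with INS-IGF2, a read-through gene on the same strand that had 0 reads in all libraries. On unshared bases its mean was 0.754 ± 0.316 TPM (SD, n = 3). H19, the non-coding RNA imprinted beside IGF2, had 10, 21 and 8 reads, and the insulin gene INS had 0. A count of 0 allows up to 3 reads, or 0.0631 CPM (reads scaled by library total) in the smallest library, and 6 reads or 0.126 CPM if both mates were counted. These limits cover counting error only.

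The IGF1 level exceeded that of IGF2 in each library. The difference of IGF1 minus IGF2 was 4.97, 4.20 and 3.83 on the log2(TPM + 0.1) scale in replicates 1, 2 and 3, with a mean of 4.33 ± 0.581 (SD, n = 3). The sign was the same in 3 of 3 libraries (exact two-sided sign-flip test, p = 0.25, the smallest that 3 libraries allow). On unshared exon bases the mean difference was 6.20.

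Among the binding proteins, IGFBP2 transcripts far outnumbered the rest. IGFBP2 binds both IGFs and is often raised in prostate cancer. It lies on chromosome 2 (216632828 to 216664436, plus strand) and shares no exon bases. It had 7439, 6853 and 7314 reads in replicates 1, 2 and 3, or 92.9, 93.3 and 91.9 TPM, with a mean of 92.7 ± 0.752 TPM (SD, n = 3), above 92.5% of protein-coding genes. The libraries lay close together: the coefficient of variation of its reads was 1.74%, the lowest of the 8 detected genes.

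IGFBP3, the main IGF carrier in blood, came next among the binding proteins. It lies on chromosome 7 (45912245 to 45921874, minus strand). It had 1049, 932 and 973 reads, or 13.7, 13.2 and 12.7 TPM in replicates 1, 2 and 3, with a mean of 13.2 ± 0.460 TPM (SD, n = 3). All 3 libraries lay below every IGFBP2 value.

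IGFBP5, which binds extracellular matrix as well as IGFs, was low but detected. It is on chromosome 2 (216672105 to 216695525, minus strand), had 157, 153 and 174 reads, and lay at 1.45, 1.54 and 1.62 TPM in replicates 1, 2 and 3. It neighbours IGFBP2 tail to tail, with 7668 bases and no other counted gene between the annotated ends. IGFBP2 exceeded its neighbour 64.0-fold, 60.5-fold and 56.8-fold in replicates 1, 2 and 3. The other such pair, IGFBP1 and IGFBP3, lies on chromosome 7 with 18576 bases between the genes, and IGFBP1, known as a liver and decidual protein, had 2, 0 and 0 reads.

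IGFBP4 and IGFBP6 were not detected. IGFBP4, an inhibitor of IGF action (chromosome 17, 40443461 to 40457731, plus strand), had 6, 14 and 22 reads in replicates 1, 2 and 3. That equalled 0.162, 0.413 and 0.599 TPM, lowest in replicate 1. IGFBP6, which prefers IGF2 over IGF1 (chromosome 12, 53097436 to 53102345, plus strand), had 10, 4 and 8 reads, or 0.466, 0.203 and 0.375 TPM. The ranges of IGF2, IGFBP4 and IGFBP6 overlapped, so their order is not resolved at this depth.

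Of the summed TPM of IGFBP1 to IGFBP6, IGFBP2 held 85.5%, 85.8% and 85.7% in replicates 1, 2 and 3. IGFBP3 held 12.2 ± 0.340% and IGFBP5 1.42 ± 0.0870% (SD, n = 3 each). IGFBP4, IGFBP6 and IGFBP1 held 0.363%, 0.321% and 0.0221% on average. The binding protein sum was 108.8, 108.7 and 107.2 TPM, and the ligand sum of IGF1 and IGF2 was 11.0, 11.8 and 10.8 TPM. Over all exon bases the binding proteins were therefore higher by 3.26 ± 0.0587 log2 units (SD, n = 3) in 3 of 3 libraries (exact two-sided sign-flip test, p = 0.25). That scale divides the IGF1 reads also by its 6700 shared bases, which yield no counted read, and so lowers the ligand sum. On unshared exon bases the same difference was 0.78 ± 0.0615 log2 units (SD, n = 3), with sums of 103.1 TPM for the binding proteins and 60.2 TPM for the ligands.

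The upstream windows of 3 binding protein genes are shown as an abundant gene, its low neighbour and an undetected gene. Each is the 250 bases before the RefSeq start site on the GRCh38.p14 build, 5′ to 3′ on the gene's strand. IGFBP2 had 3 windows listed, and the one at the start of the reference transcript is shown. It lies inside the gene as counted, whose annotated start is at 216632828. Capitals mark exact matches on either strand to TATAAA, the core of a TATA box, or GGGCGG, the core of a GC box (CCGCCC on the other strand). Variant forms of these motifs were not searched, so a window without a match may still hold one. The windows are chr2:216633170-216633419 (plus strand) for IGFBP2, chr2:216695550-216695799 (minus strand) for IGFBP5 and chr17:40443200-40443449 (plus strand) for IGFBP4.
IGFBP2: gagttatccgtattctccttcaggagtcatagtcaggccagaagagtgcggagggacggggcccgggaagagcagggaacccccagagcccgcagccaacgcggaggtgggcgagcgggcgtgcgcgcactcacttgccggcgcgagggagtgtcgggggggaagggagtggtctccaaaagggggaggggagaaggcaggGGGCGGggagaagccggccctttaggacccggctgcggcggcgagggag
IGFBP5: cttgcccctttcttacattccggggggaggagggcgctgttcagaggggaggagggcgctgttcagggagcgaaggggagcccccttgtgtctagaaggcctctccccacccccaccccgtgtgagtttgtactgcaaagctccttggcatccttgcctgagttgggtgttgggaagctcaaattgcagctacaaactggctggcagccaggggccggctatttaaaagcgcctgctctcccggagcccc
IGFBP4: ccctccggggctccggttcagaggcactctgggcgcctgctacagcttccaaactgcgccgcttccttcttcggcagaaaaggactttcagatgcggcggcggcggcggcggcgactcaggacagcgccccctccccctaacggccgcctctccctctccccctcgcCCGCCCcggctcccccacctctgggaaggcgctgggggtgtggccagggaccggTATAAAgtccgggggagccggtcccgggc

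IGFBP2 had 1 GGGCGG match, IGFBP5 had no exact match to either motif, and IGFBP4 had 1 match to each, its TATAAA starting 29 bases before the start site. A window was listed for 9 of the 10 genes. For IGF1 the start site used lay 1184 bases upstream of that of the reference transcript, and its window held no match to any motif searched. For the other genes the start site used was that of the reference transcript. GGGCGG occurred in 7 of the 9, among them IGF2R with 6 matches of which some overlap, and in 42.6% of all 35116 windows of this length. TATAAA occurred in 1 of the 9, IGFBP4, and in 10.7% of all windows. The androgen receptor half-site AGAACA, also searched on both strands, occurred in 0 of the 9 and in 12.4% of all windows. GC content was 69.2% for IGFBP2, 61.2% for IGFBP5 and 71.6% for IGFBP4, with a median of 58% over all windows. These matches describe letters in a window and not sites of binding.

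IGF2R had the highest mean TPM of the 10 genes, 1.16 times that of IGFBP2. TPM here divides by all annotated exon bases, 14911 for IGF2R and 4767 for IGFBP2. Levels by the length of the transcripts present were not computed, so the order of these genes may differ on that scale. IGF2R lies on chromosome 6 (159969099 to 160113507, plus strand), shares no exon bases, and had 26605, 25213 and 26811 reads in replicates 1, 2 and 3. This equalled 106.3, 109.8 and 107.7 TPM, with a mean of 107.9 ± 1.77 TPM (SD, n = 3), above 93.8% of protein-coding genes. The signalling receptor IGF1R, which is not one of the 10, lay at 50.4, 52.2 and 51.4 TPM. IGF2R minus IGF1R was 1.07 ± 0.00502 on the log2(TPM + 0.1) scale (SD, n = 3), or 2.10-fold, in 3 of 3 libraries (exact two-sided sign-flip test, p = 0.25). The insulin receptor gene INSR, whose product can pair with IGF1R into hybrid receptors, lay at 22.7, 25.0 and 24.4 TPM. INSR minus IGF1R was −1.09 ± 0.0472 log2 units (SD, n = 3), again with 1 sign in 3 of 3 libraries (exact two-sided sign-flip test, p = 0.25). INSRR, the insulin receptor-related gene, had 14, 10 and 15 reads.

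IRS1 and IRS2, the docking proteins phosphorylated by both receptors, were both detected. IRS1 (chromosome 2, 226731317 to 226799759, minus strand) had 2746, 2495 and 2826 reads, or 16.4, 16.3 and 17.0 TPM in replicates 1, 2 and 3. IRS2 (chromosome 13, 109752698 to 109786568, minus strand) had 817, 745 and 899 reads, or 5.98, 5.94 and 6.62 TPM. The ranges did not overlap. IRS2 minus IRS1 was −1.41 ± 0.0531 log2 units (SD, n = 3), with the same sign in 3 of 3 libraries (exact two-sided sign-flip test, p = 0.25).

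Another substrate gene outside the 10, IRS4, which encodes a docking protein with a narrow range of tissues, was higher than both. IRS4 lay at 27.7, 28.6 and 26.4 TPM in replicates 1, 2 and 3, and IRS4 minus IRS1 was 0.73 ± 0.0899 log2 units (SD, n = 3; 3 of 3 libraries, exact two-sided sign-flip test, p = 0.25). IRS4 shares 11.8% of its exon bases with other genes. The comparison of IRS4 with IRS1 was added after the values were seen, and without division by exon length it turned to −0.61.

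**Figure D3:**
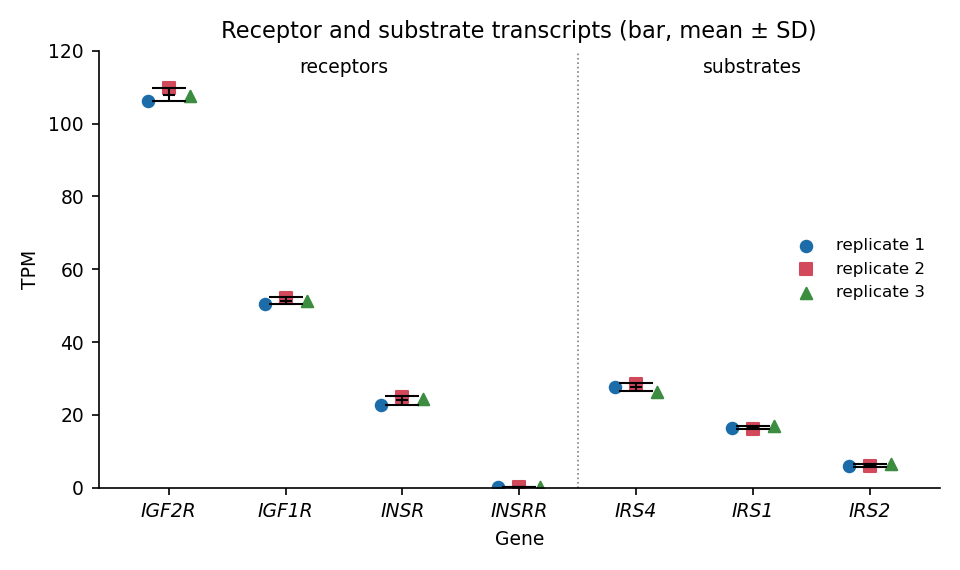
TPM of receptor and substrate transcripts in each of the 3 libraries, with bars for mean ± SD (n = 3). IGF2R stands near 107.9 TPM, above IGF1R at 51.4 and INSR at 24.1, and IRS4 at 27.6 stands above IRS1 at 16.6 and IRS2 at 6.18.

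Ordered by mean TPM the 10 genes ran IGF2R, IGFBP2, IRS1, IGFBP3, IGF1, IRS2, IGFBP5, IGF2, IGFBP4 and IGFBP6. Of the 9 neighbouring pairs in this order, 7 had ranges over the 3 libraries that did not overlap. The pairs that overlapped were IGF2 with IGFBP4 and IGFBP4 with IGFBP6. On unshared exon bases IGF1 stood between IGFBP2 at 88.2 TPM and IRS1 at 15.8 TPM, and 7 of 9 pairs were again apart.

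The spread between the libraries was set against counting noise for each detected gene by a chi-square test of the 3 counts against an even level, with Benjamini-Hochberg adjustment over all 21039 detected genes. Between pairs of libraries the mean chi-square per degree of freedom over all detected genes was 5.40 to 10.6, so the libraries differ beyond counting noise as a whole, and a call shows no more than such a departure. At an adjusted p under 0.05 the test called 4 of the 8 detected IGF axis genes, where it called 46.1% of all detected genes. The share called was 31.6% of genes averaging 10 to under 100 reads, the class of IGF2, 41.2% of those with 100 to under 1000, and 62.5% of those with at least 1000, the class of IGF2R and IRS1. Those 4 were IGF2R (adjusted p = 6.9e-05), IGF2 (0.000714), IRS1 (0.00726) and IRS2 (0.00859). With the statistic divided by 2, which allows for mates counted singly and for no other source of spread, 1 of the 8 was called, IGF2R (adjusted p = 0.0228), where 17.6% of all detected genes were called. IGF2 then had an adjusted p of 0.061, IRS1 0.155 and IRS2 0.166.

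The 8 genes were also set beside genes in the same broad class of read number, as a description with no test. Counting noise falls as reads rise within a class. IGF2R had far more than 1000 reads, and IGFBP3 and IRS2 lay in the upper part of their class. A value below a class median therefore does not by itself show a low spread. The median coefficient of variation was 4.10% for detected genes averaging at least 1000 reads, and IGF2R (2.10%), IGFBP2 (1.74%) and IGF1 (2.65%) lay below it and IRS1 (4.80%) above it. The median was 9.32% from 100 to under 1000 reads, and IGFBP3 (2.95%), IGFBP5 (7.06%) and IRS2 (8.53%) lay below it. IGF2, at 42.9%, lay above the median of 25.1% for genes averaging 10 to under 100 reads. IGF2R deviated from an even level by little, at 0.984, 0.992 and 1.02 of the expected reads in replicates 1, 2 and 3, and its call was lost without replicate 3 (adjusted p = 0.512). The IGF2 call was lost without replicate 1 (adjusted p = 0.358). IRS1 was highest in replicate 3 at 1.05 of the expected reads, and IRS2 was highest there too at 1.10. Without replicate 3 the adjusted p was 0.399 for IRS1 and 0.711 for IRS2, and without replicate 2 it was 0.0807 for IRS1. The binding proteins IGFBP2, IGFBP3 and IGFBP5 and the ligand IGF1 were not called, with adjusted p-values of 0.187, 0.511, 0.533 and 0.467. A p that misses the threshold does not show equal levels.

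**Figure D4:**
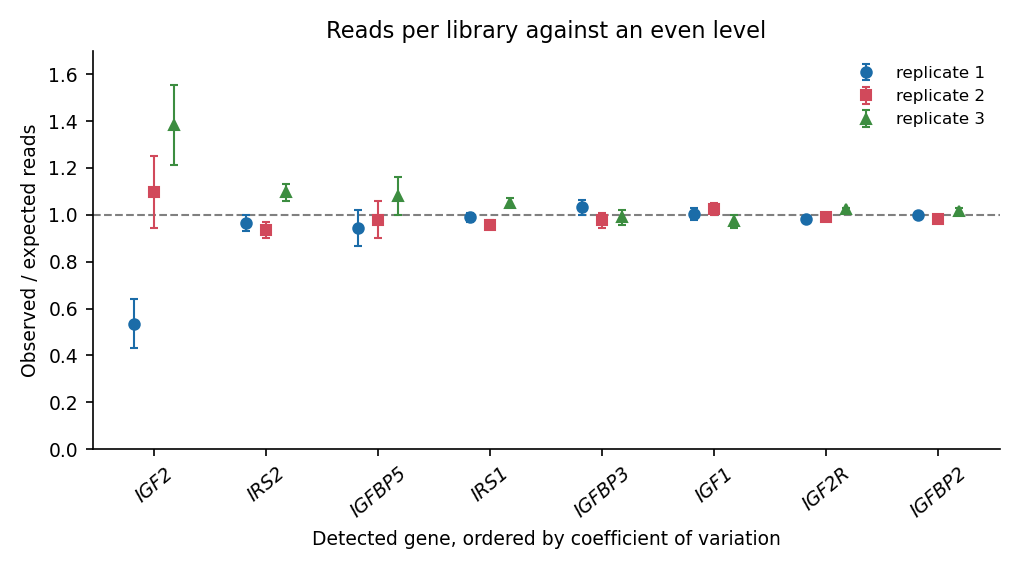
Reads in each library divided by the reads expected from an even level, for the 8 detected genes, ordered by coefficient of variation. Error bars are the square root of the count on the same scale and treat reads as independent; IGF2 spreads from 0.536 to 1.38, and the other 7 genes stay between 0.937 and 1.10.

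Of 7 genes for IGFBP proteases and their inhibitors 6 were detected, beside 71.8% of protein-coding genes. KLK3, which cleaves IGFBP3, was at 1439.7 ± 26.3 TPM, and the lysosomal protease gene CTSD was at 73.6 ± 1.74 TPM (SD, n = 3 each), with 52.7% of CTSD exon bases shared and 148 TPM on the unshared ones. PAPPA, whose product cuts IGFBP4, was at 0.426 ± 0.113 TPM, and PAPPA2 had 26, 8 and 12 reads. STC2, which encodes an inhibitor of PAPPA, was at 45.1 ± 2.23 TPM, and its paralog STC1 was at 3.32 ± 0.411 TPM (SD, n = 3 each). HTRA1, whose product cuts IGFBP5, was at 1.82 ± 0.277 TPM. Of 4 other binding protein genes only IGFALS was detected, at 2.04 ± 0.463 TPM (SD, n = 3). It encodes a further part of the complex that carries IGFs with IGFBP3 in blood.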

How the data were processed

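Ribosomal RNA was depleted and stranded libraries were built, per the labels' protocols. The deposited values are raw counts of reads per gene, made with featureCounts 1.6.3 on the Ensembl 90 annotation of GRCh38, per the file headers, with no option for strand, pairs or overlapping genes recorded. Alignment used STAR 2.7.0f, per the submitters' processing notes. Symbols came from GENCODE release 44 (98.7% of identifiers matched). From the deposited counts, TPM was computed over the merged exon length, and again over exon bases that no other gene shares on either strand. Both lengths take in exons of every annotated transcript, used or not, so comparisons of level between genes depend on the annotation. RN7SL and mitochondrial genes held 26.7% of TPM, so TPM of all genes here is lowered by them alike.

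Log2 values were log2(TPM + 0.1). The spread between libraries was set against counting noise by chi-square with TMM effective sizes (edgeR 4.0.16, R 4.3.3). The script was tested on simulated data that held counting noise and planted changes alone, so it does not show calibration on these libraries. DESeq2 1.42.0 gave other size factors. The common biological coefficient of variation was 0.0737. No pair of libraries was alike within sampling noise (mean chi-square per degree of freedom 5.40 to 10.6). Promoter sequences came from RefSeq (GRCh38.p14), exon sequences from hg38. Computation used Python 3.11.15, numpy 2.4.6, pandas 2.3.3, scipy 1.17.1 and matplotlib 3.10.9. All 10 genes are described, and others are named only from a pathway list, marker lists or as genes sharing exons. None is named for a like pattern, since replicates of 1 condition hold none. Members and lists were chosen with earlier results of these data known.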

Additional observations from a re-analysis of the deposited data

How the results depend on the processing

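No paired analysis was possible because the 3 libraries form 1 group. The members called beyond counting noise were 4, and 1 with the statistic divided by 2. Leaving out 1 library gave 1 to 3. Over all genes the calls were 9694, against 3699 with that division and 13571 with no filter on low counts, and 7096, 5201 and 5180 without replicates 1, 2 and 3. With no filter IGFBP4 was also called (adjusted p = 0.0275). DESeq2 size factors or raw totals left the count of called members at 4. The members detected were 8, with 7 to 10 over the other minimums and 8 to 9 with a library left out. The 5 planned within-library differences kept their sign in all settings run, from 3.01 to 6.20 for IGF1 minus IGF2 and from 0.78 to 3.30 for binding proteins minus ligands. IRS4 minus IRS1, added after the values were seen, turned to −0.61 in CPM. Without mitochondrial and RN7SL genes in the total, IGF2R was at 147.2 TPM and IGF1 at 14.6. A test of 1 library against the others was not run, since libraries of 1 group give no contrast.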

Other observations

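Downstream of the receptors, 23 of 24 adaptor and kinase genes were detected, beside 71.8% of protein-coding genes. A mean of 1 TPM was reached by 23, beside 62.7% of protein-coding genes. Among the catalytic subunits of phosphoinositide 3-kinase, PIK3CD was at 54.3 ± 1.68 TPM and PIK3CB at 45.1 ± 4.65 TPM, and PIK3CA was at 3.15 ± 0.339 TPM (SD, n = 3 each). PIK3CA shares 36.2% of its exon bases and lay at 4.70 TPM on the unshared ones. AKT1, at 106.2 ± 1.10 TPM, stood above AKT2 at 43.3 ± 1.62 TPM (SD, n = 3 each). GRB10, an adaptor that dampens insulin and IGF receptor signalling, was at 80.8 ± 2.41 TPM, and GRB14, of the same family, was at 1.75 ± 0.0730 TPM (SD, n = 3 each). PIK3R2, the gene of the 24 that was not detected, shares 87.2% of its exon bases and had 7, 10 and 15 reads. On its unshared bases it averaged 1.08 TPM. Of the IGF2 mRNA-binding protein genes, IGF2BP3 was at 9.41 ± 0.230, IGF2BP1 at 6.79 ± 0.0843 and IGF2BP2 at 2.53 ± 0.439 TPM (SD, n = 3 each).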
